A study of Bos taurus with 48 samples.

Results

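Lipopolysaccharide-binding protein (LBP), bactericidal/permeability-increasing protein (BPI), lysozyme (LYZ), lactoferrin (LTF), pentraxin 3 (PTX3), CD14 and peptidoglycan recognition protein 1 (PGLYRP1) are proteins of innate host defence, and their transcripts were followed here in bovine endometrium. A probe was taken as a member when the array's gene name, its description or its entry in the RefSeq gene table carried one of these 7 symbols. All 7 genes of the 19804 gene names on the array were found, by 10 of its 21475 probes. The rule in its strict form, the gene name or the last bracketed symbol, found 8 of them. The other 2 were the probe described as similar to the LBP precursor and named LOC514978, where the symbol stands in an earlier bracket, and the PGLYRP1 probe, which the array names PGLYRP. A signal limit was set on the sample channel, a reading clearly over background and of 80 units or more, and a probe was tested when 22 or more of the 44 samples met it. Of the 10 probes 7 were tested, and each of the 7 met the limit in 44 of 44 samples. For a sample on 1 array, 1 of the 2 spots of a probe was enough to meet it. The lowest signal on an array, the mean of the 2 spots, was 106.7 units for LOC514978 and 79.2 for BPI, near the limit.

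The samples came from 22 lactating Holstein-Friesian dairy cows with synchronised cycles, slaughtered on day 17 of the reproductive cycle. In 12 cows a grade 1 blastocyst had been transferred on day 7 and the cow was pregnant. The 10 cyclic cows had received no embryo, so that embryo transfer and pregnancy cannot be told apart. Both caruncular endometrium (the projections to which the placenta later attaches) and intercaruncular endometrium (the glandular tissue between them) were taken from each cow. The labels give an embryo size for the pregnant cows, large in 7 (over 20 cm and over 75 mg) and small in 5 (under 20 cm and under 40 mg), and a fertility label, fertile in 6 and sub-fertile in 6. The sources used here do not say how the fertility label was assigned. Of the 7 cows with a large embryo, 3 were fertile and 4 sub-fertile, and of the 5 with a small embryo, 3 were fertile and 2 sub-fertile. Each sample, labelled with Cy5, was hybridised to a 2-colour oligonucleotide array with a Cy3-labelled pool of endometrium from both tissues, without dye swaps. Values below are log2 ratios of the sample over this pool, so that 0 is the level of the pool and 1 unit is a doubling. Because each probe has its own affinity, the level of 1 probe is not set against that of another.

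LBP, made mainly by the liver, lifts lipopolysaccharide (LPS) out of bacterial membranes and hands it to CD14, which passes it to the receptor TLR4 with its co-receptor MD-2, the product of LY96. BPI, a protein of the same lipid-binding family and best known from neutrophil granules, also binds LPS but damages the bacterium. Lysozyme cuts peptidoglycan, lactoferrin binds iron and microbial surfaces, PGLYRP1 binds peptidoglycan, and PTX3 is a long pentraxin secreted by stromal, endothelial and myeloid cells that tags microbes for uptake. In the days before attachment the bovine conceptus secretes interferon tau, the signal of maternal recognition of pregnancy.

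In the RefSeq gene table used for names, BPI, LBP and LOC514978 are consecutive protein-coding genes on chromosome 13. LOC514978 is thus listed as a gene of its own beside LBP, although the array described it as an LBP-like transcript. The 3 neighbours differed in their response to pregnancy. LOC514978 was 27.3-fold higher in pregnant than in cyclic cows in caruncular endometrium and 12.5-fold higher in intercaruncular endometrium, and BPI was 7.41-fold and 4.37-fold higher. LBP itself, which lies between them, stood at 0.99-fold and 1.13-fold and did not pass the test. Among the other measured members, LYZ and PTX3 had higher means in pregnant cows without passing both limits, and CD14 and LTF differed by less than their spread between cows. In whole tissue, a change in the number of cells of a type and in the RNA per cell cannot be told apart.

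The LOC514978 probe (A_73_103022) had, in caruncular endometrium of cyclic cows, a lowest value of -4.32, a median of -4.04 and a highest of -3.26. In caruncular endometrium of pregnant cows its lowest value was -1.44, its median 1.13 and its highest 2.03. Every pregnant cow therefore lay above every cyclic cow, with a gap between the groups. The mean was 0.72 ± 1.16 (SD, n = 12) in pregnant and -4.05 ± 0.31 (SD, n = 10) in cyclic cows, a log2 change of 4.77 ± 0.36 (SE) with an adjusted p of 1.4e-09 (limma, Benjamini-Hochberg over all probes tested). In intercaruncular endometrium the cyclic cows ran from -3.97 over a median of -3.72 to -3.49. The pregnant cows there ran from -1.79 over a median of 0.14 to 1.73, again without overlap. The intercaruncular log2 change was 3.64 ± 0.38 (SE), with an adjusted p of 4.2e-07. Such separation of the 2 groups was seen in 1.89% of all probes tested in caruncular and in 1.12% in intercaruncular tissue. The pregnant cows spread more widely than the cyclic cows in both tissues.

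The BPI probe (A_73_113676) ran in caruncular endometrium from -3.58 over a median of -2.64 to -2.02 in cyclic cows. In pregnant cows it ran from -1.54 over 0.17 to 1.98, so that these groups did not overlap either. The log2 change was 2.89 ± 0.40 (SE), with an adjusted p of 1.6e-05. In intercaruncular endometrium cyclic cows ran from -2.97 over -2.24 to -1.70 and pregnant cows from -1.73 over -0.01 to 1.45. Here 11 of 12 pregnant cows lay above every cyclic cow, and the lowest pregnant cow (-1.73, small embryo) fell just under the highest cyclic cow. The log2 change was 2.13 ± 0.40 (SE), with an adjusted p of 0.00088.

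The LBP probe (A_73_104583) covered a narrow range. In caruncular endometrium cyclic cows ran from -0.31 over 0.01 to 0.30 and pregnant cows from -0.25 over -0.06 to 0.33. The log2 change was -0.01 ± 0.09 (SE, 95% interval -0.19 to 0.17, adjusted p 0.93). In intercaruncular endometrium cyclic cows ran from -0.03 over 0.20 to 0.74 and pregnant cows from -0.06 over 0.41 to 0.94, with a change of 0.18 ± 0.13 (SE, 95% interval -0.08 to 0.44, adjusted p 0.33). The groups overlapped almost throughout, and both intervals lie inside the limit of 1.5-fold (0.58 on the log2 scale).

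**Figure D1:**
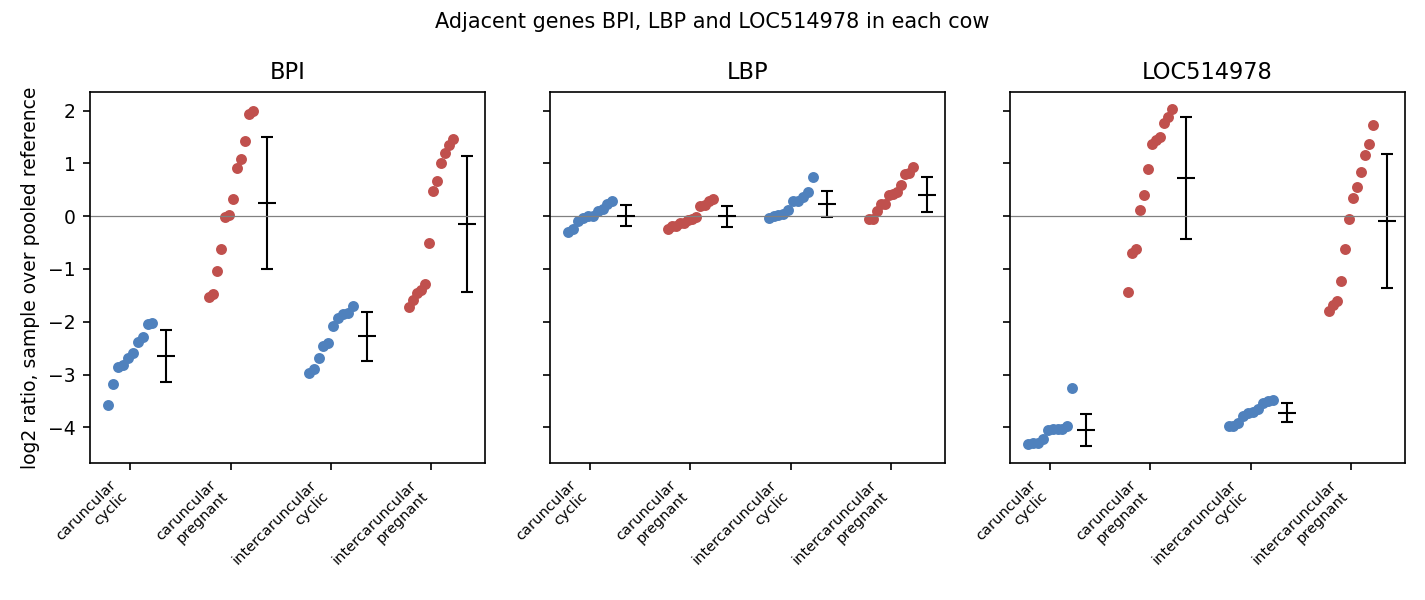
Log2 ratio over the pooled reference (y axis) for BPI, LBP and LOC514978 in cyclic (blue) and pregnant (red) cows of each tissue, 1 point per cow in order of value, with the mean and SD in black beside each group. The pregnant cows lie above every cyclic cow for LOC514978 in both tissues and for BPI in caruncular tissue, while the groups of LBP lie on each other.

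As both LBP-named probes lie on every array, their difference within a sample does not depend on the scaling of that array. The LOC514978 probe minus the LBP probe averaged 0.72 ± 1.11 (SD, n = 12) in caruncular tissue of pregnant cows and -4.06 ± 0.29 (SD, n = 10) in cyclic cows. The difference of 4.78 had a two-sided permutation p of 1e-05, the smallest that 100000 resamples can give. In intercaruncular tissue the means were -0.49 ± 1.10 (SD, n = 12) and -3.95 ± 0.27 (SD, n = 10), a difference of 3.46 with the same permutation p. The values of pregnant and cyclic cows did not overlap in either tissue. The lowest pregnant cow stood at -1.25 in caruncular and -2.21 in intercaruncular tissue, and the highest cyclic cow at -3.49 and -3.55.

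CD14, the membrane or soluble receptor that takes LPS from LBP, changed by 0.11 ± 0.14 (SE) in caruncular and 0.12 ± 0.16 (SE) in intercaruncular tissue. Its adjusted p was 0.60 in the first and 0.62 in the second, and the 95% intervals reached from -0.18 to 0.39 and from -0.20 to 0.45. Cyclic cows ran from -0.79 to 0.44 in caruncular tissue and pregnant cows from -0.37 to 0.34. The corresponding intercaruncular ranges were -0.60 to 0.80 and -0.41 to 0.51, so that the pregnant cows lay within the range of the cyclic cows.

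PTX3 (A_73_102935) varied widely between cows of the same state. In caruncular endometrium it ran from -4.62 over -1.63 to 0.48 in cyclic cows and from -4.08 over 0.07 to 1.85 in pregnant cows. In intercaruncular endometrium it ran from -3.42 over -1.52 to 0.52 and from -2.32 over -0.09 to 1.57. The 3 cyclic cows with the lowest values in caruncular tissue (-4.62, -3.93 and -3.20) also stood among the 4 lowest in intercaruncular tissue. The log2 change was 1.32 ± 0.66 (SE, adjusted p 0.14) in caruncular and 1.37 ± 0.49 (SE, adjusted p 0.051) in intercaruncular tissue. The second value lay on the limit: it passed under 4 of 15 alternatives, at adjusted p values down to 0.042, and rose to 0.92 with slide as a fixed block.

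Lysozyme was represented by 3 probes that did not give the same reading. The probe described as similar to human LYZ (A_73_105503) was bright on all 48 arrays. It ran from -1.01 over -0.42 to 2.08 in caruncular tissue of cyclic cows, where the highest was a cow scanned on the third scan day alone, and from -0.68 over 0.45 to 2.07 in pregnant cows. Its change was 0.70 ± 0.38 (SE, adjusted p 0.18). In intercaruncular tissue it ran from -1.18 over -0.51 to 0.10 and from -0.59 over 0.03 to 0.72. The change of 0.58 ± 0.19 (SE, adjusted p 0.034) was just under the 1.5-fold limit, and it passed both limits under 4 of 15 alternatives. The other 2 probes (A_73_106209 and A_73_106856), which the RefSeq table names LYZ2, were well above background on 0 and 1 of 48 arrays and were not tested. The lysozymes of cattle form a family of similar genes, so the gene behind the bright probe is uncertain.

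LTF (A_73_116655) ran in caruncular tissue from -1.54 over -0.18 to 1.40 in cyclic cows and from -1.18 over -0.49 to 0.26 in pregnant cows. Its log2 change was -0.35 ± 0.28 (SE, adjusted p 0.36) there and 0.35 ± 0.27 (SE, adjusted p 0.38) in intercaruncular tissue. The intercaruncular ranges were -1.02 to 1.41 in cyclic and -0.70 to 1.39 in pregnant cows, which overlap almost throughout. PGLYRP1 was well above background on 17 of 48 arrays, 4 of 13 and 5 of 12 of pregnant caruncular and intercaruncular tissue and 5 of 13 and 3 of 10 of cyclic tissue. It met the signal limit in 7 of 44 samples and was not tested. Its highest measured value was 2.66, in caruncular tissue of the cyclic cow scanned on the third day alone, and its next highest 1.33, in intercaruncular tissue of the same cow.

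**Figure D2:**
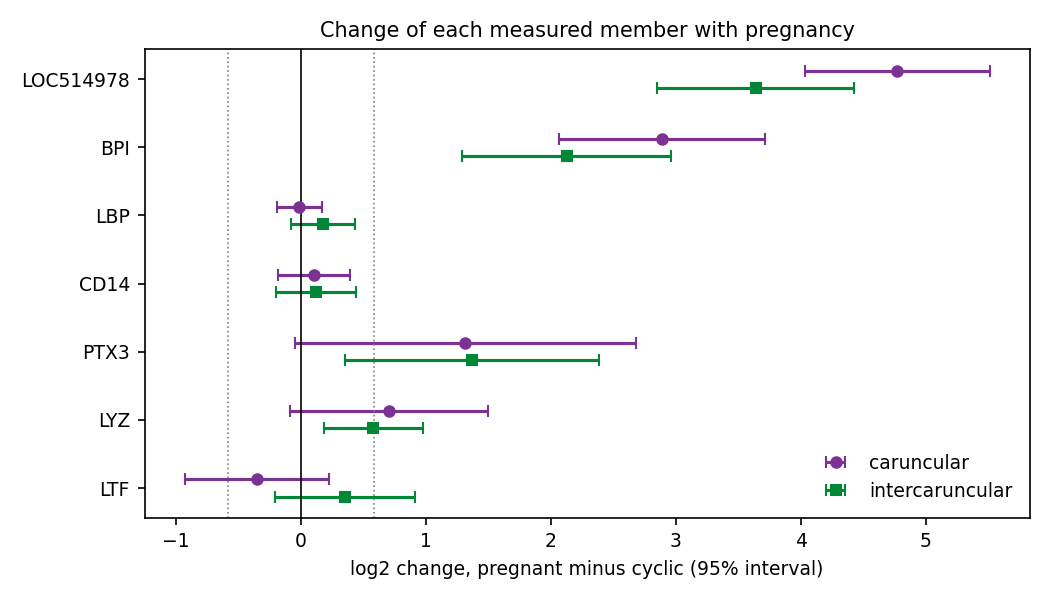
Log2 change, pregnant minus cyclic (x axis), with its 95% interval for the 7 tested probes in caruncular (purple circles) and intercaruncular (green squares) endometrium. Dotted lines mark 1.5-fold. The LOC514978 and BPI intervals lie beyond it in both tissues, and the LBP and CD14 intervals lie inside it.

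In all, 2 of the 7 tested probes passed 1.5-fold and an adjusted p of 0.05 in caruncular tissue, and 2 of 7 in intercaruncular tissue, LOC514978 and BPI each time, and none fell past it. Over all probes tested, 5.79% (caruncular) and 4.03% (intercaruncular) rose past the same limits, and 4.22% and 3.29% fell. The calls of both genes were kept under 14 of 15 alternatives in each tissue. Of these, omitting the centring could not change a call. Nor could the choice between first and repeat arrays in intercaruncular tissue, where no sample was repeated. The exception was slide as a fixed block, fitted on the first array of each sample, of which 1 slide per tissue holds both states. LOC514978 then changed by 4.78 (adjusted p 0.071) and 3.78 (adjusted p 0.11) and BPI by 3.12 (adjusted p 0.28) and 2.75 (adjusted p 0.29) in caruncular and intercaruncular tissue. These values are the differences within that slide, 3 pregnant cows against 1 cyclic cow. Within the main scan day of each tissue, 11 pregnant against 9 cyclic cows on first arrays, LOC514978 differed by 4.86 and 3.67 and BPI by 3.06 and 2.32. On the third scan day the first arrays were of 1 cow of each state, and LOC514978 differed by 3.65 and 3.28 but BPI by 0.97 and 0.11. The 4 repeat arrays of caruncular tissue were scanned that day too, and with them, 2 pregnant against 4 cyclic cows, the caruncular differences were 4.23 for LOC514978 and 2.53 for BPI. The caruncular slide that held both states only through a repeat array gave 4.48 and 3.26, with 2 pregnant cows against 1 cyclic cow.

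Comparing the tissues asks where in the endometrium these transcripts were more abundant. The levels of LOC514978 ordered as caruncular pregnant (0.72), intercaruncular pregnant (-0.08), intercaruncular cyclic (-3.72) and caruncular cyclic (-4.05). The pregnant cows were higher in caruncular tissue in 11 of 12 cows, by 0.80 ± 0.47 (SE, adjusted p 0.16) without and 0.80 ± 0.21 (SE, adjusted p 0.0042) with the cow as a block. In cyclic cows the caruncular value was lower in 9 of 10, by -0.33 ± 0.11 (SE, adjusted p 0.032), a difference under 1.5-fold. With slide or scan date as a fixed block this difference turned to 0.65 (adjusted p 0.57 and 0.65), the value of 1 cow, so that the order of the cyclic means rests on the comparison without these blocks. Both limits were passed between tissues of cyclic cows by 12.0% of all probes tested. The pregnancy effect was 1.13 log2 units larger in caruncular tissue. This difference had an adjusted p of 0.65 when the tissues were taken as separate samples and of 0.043 with the cow as a block, and pairing follows from the 2 tissues being from the same animal. Of all probes tested 0.0202% passed for this difference, 3 probes, and 150 with the block.

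BPI showed the same order of means, 0.25, -0.15, -2.28 and -2.64. Its pregnancy effect was 0.76 larger in caruncular tissue, with an adjusted p of 0.89, or 0.053 with the cow as a block. In pregnant cows it was higher in caruncular tissue in 9 of 12 cows, by 0.40 ± 0.49 (SE, adjusted p 0.53), or 0.40 ± 0.12 (SE, adjusted p 0.013) with the cow as a block. In cyclic cows the caruncular value was lower by -0.37 ± 0.20 (SE, adjusted p 0.17), or -0.37 ± 0.14 (SE, adjusted p 0.041) with the block. The differences between tissues within pregnant and within cyclic cows were under 1.5-fold.

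Of the 7 tested members LTF alone passed 1.5-fold and the adjusted p between tissues in pregnant cows, or LTF and LOC514978 with the cow as a block, where 17.2% of all probes tested passed without the block. It was lower in caruncular than in intercaruncular tissue in 12 of 12 pregnant cows, by -0.75 ± 0.22 (SE, adjusted p 0.0067), with means of -0.46 ± 0.42 (SD, n = 12) and 0.29 ± 0.68 (SD, n = 12). In cyclic cows it was higher in caruncular tissue in 4 of 10, and the change of -0.05 ± 0.33 (SE, adjusted p 0.93) did not pass. The difference between these effects was -0.70 ± 0.40 (SE, adjusted p 0.77), or -0.70 ± 0.20 (SE, adjusted p 0.075) with the cow as a block. LBP too was lower in caruncular tissue in 11 of 12 pregnant cows, by -0.41 ± 0.11 (SE, adjusted p 0.0040), a difference under 1.5-fold. In cyclic cows LBP was lower there in 8 of 10, by -0.22 ± 0.10 (SE, adjusted p 0.10), or -0.22 ± 0.08 (SE, adjusted p 0.034) with the cow as a block. The LBP difference between the 2 states was -0.19 ± 0.15 (SE, adjusted p 0.91), or -0.19 ± 0.11 (SE, adjusted p 0.40) with the block. Apart from 2 cows scanned on the third scan day alone, 1 pregnant and 1 cyclic, all first arrays of caruncular tissue were scanned on 1 day and all of intercaruncular tissue on another, so that tissue and scan day can be told apart in those 2 cows alone. With scan date as a block, the value of the pregnant one, LTF differed by -0.42 (adjusted p 1.0) and LBP by -0.01 (adjusted p 1.0).

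**Figure D3:**
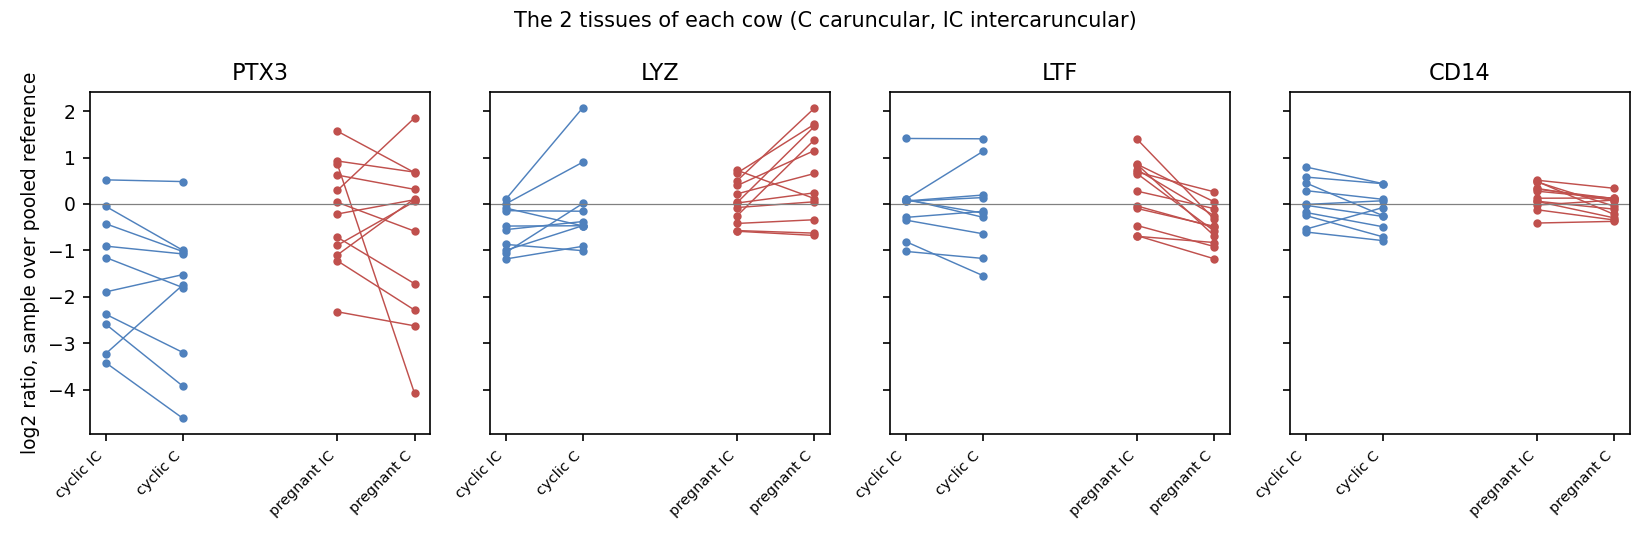
Log2 ratio over the pooled reference (y axis) of PTX3, LYZ, LTF and CD14, with a line joining the intercaruncular (IC) and caruncular (C) sample of each cyclic (blue) and pregnant (red) cow. LTF falls from intercaruncular to caruncular tissue in 12 of 12 pregnant cows, and PTX3 runs from -4.62 to 0.48 in caruncular tissue of cyclic cows.

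Values of a member in the 2 tissues of a cow were compared by correlation, 14 relations over 7 probes and 2 states. BPI was the closest in pregnant cows, with Pearson's r = 0.93 and Spearman's rho = 0.92 over 12 cows (permutation p 2.0e-05 for each, adjusted 0.00028), and r = 0.91 without the 2 cows farthest from the median. LOC514978 gave r = 0.78 and rho = 0.83 over 12 pregnant cows (permutation p 0.0038 and 0.0017, adjusted 0.013 and 0.0079), and r = 0.73 without the 2 farthest. In the 10 cyclic cows, where LOC514978 hardly varied, r was -0.36 (permutation p 0.35, adjusted 0.35) and rho was -0.20 (permutation p 0.59, adjusted 0.63). PTX3 and LTF were close in cyclic cows, with r = 0.84 and rho = 0.90 for PTX3 (permutation p 0.0023 and 0.00066, adjusted 0.011 and 0.0046) and r = 0.87 and rho = 0.73 for LTF (permutation p 0.0011 and 0.020, adjusted 0.0078 and 0.047). Without the 2 farthest cows these r were 0.77 and 0.75. CD14 in cyclic cows gave r = 0.76 and rho = 0.82 (permutation p 0.012 and 0.0060, adjusted 0.033 and 0.021), and r = 0.55 without the 2 farthest. LTF in pregnant cows and LYZ in cyclic cows passed by r alone (adjusted 0.040 for each). LYZ in pregnant cows passed by rho alone (adjusted 0.047), and the other relations passed by neither.

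Within the pregnant cows LOC514978 was set against each other tested member, 12 relations over both tissues. With BPI it gave r = 0.79 and rho = 0.76 in caruncular tissue (permutation p 0.0028 and 0.0062, adjusted 0.011 and 0.025, r = 0.62 without the 2 farthest cows). In intercaruncular tissue r was 0.89 and rho 0.85 (permutation p 0.00069 and 0.0011, adjusted 0.0083 and 0.013, r = 0.85 without the 2 farthest). The same 4 cows were the 4 lowest in BPI in both tissues, and of these 1 had a large embryo, the pregnant cow scanned on the third scan day alone. Within the 7 cows with a large embryo, r between the genes was 0.53 in caruncular and 0.75 in intercaruncular tissue, and the 5 with a small embryo are too few for a correlation. LOC514978 also followed CD14 in intercaruncular tissue (r = 0.80, rho = 0.77, permutation p 0.0019 and 0.0045, adjusted 0.011 and 0.025, r = 0.91 without the 2 farthest), though CD14 covered less than 1 log2 unit there. In caruncular tissue that r was 0.08 and rho 0.10 (permutation p 0.80 and 0.75, adjusted 0.80 and 0.90). With PTX3 r was 0.71 and rho 0.68 in intercaruncular tissue (permutation p 0.012 and 0.018, adjusted 0.035 and 0.054, r = 0.63 without the 2 farthest). In caruncular tissue r with PTX3 was 0.19 and rho 0.01 (permutation p 0.55 and 0.97, adjusted 0.63 and 0.99). The relations with LYZ and LTF did not pass in either tissue. With LBP r was 0.30 and rho 0.18 in caruncular tissue (permutation p 0.35 and 0.57, adjusted 0.46 and 0.76). In intercaruncular tissue it was 0.61 and rho 0.56 (permutation p 0.040 and 0.063, adjusted 0.097 and 0.15), which did not pass after adjustment.

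**Figure D4:**
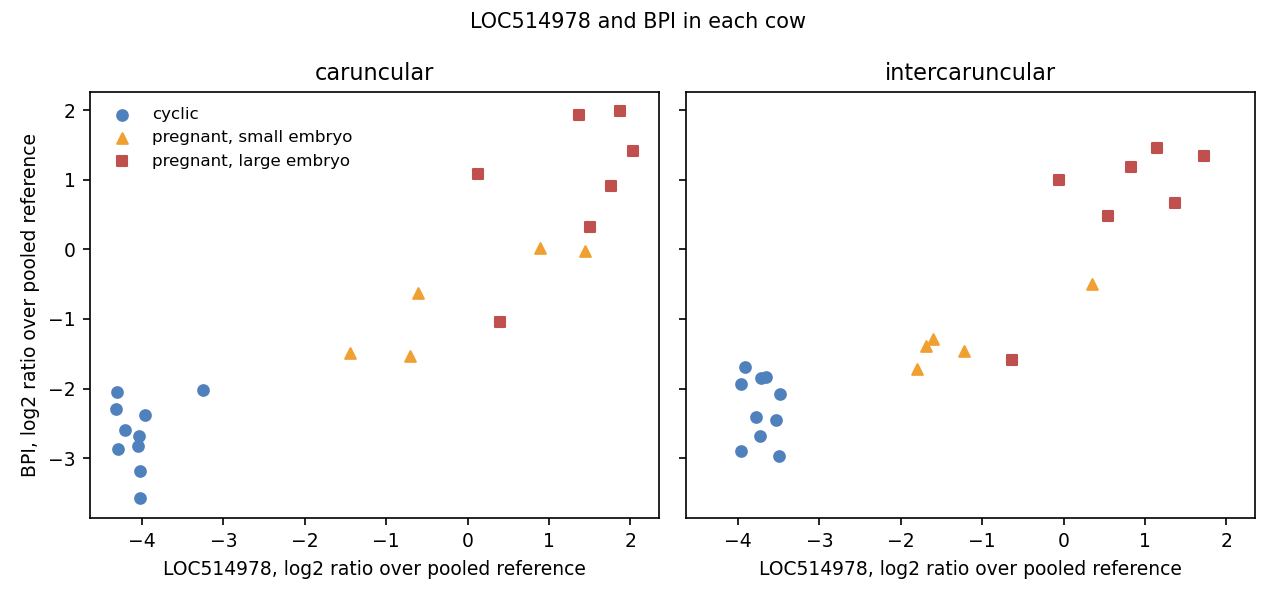
BPI (y axis) against LOC514978 (x axis), both as log2 ratio over the pooled reference, in each cow of the 2 tissues. Cyclic cows (blue circles) form a group at the lower left, and cows with a small embryo (orange triangles) lie mostly below those with a large embryo (red squares).

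Embryo size was compared within the pregnant cows. In intercaruncular endometrium LOC514978 ran from -0.63 over 0.83 to 1.73 in the 7 cows with a large embryo and from -1.79 over -1.60 to 0.35 in the 5 with a small one. All 7 cows with a large embryo lay above the mean of those with a small one, and 5 lay above each of them. The log2 change, large minus small, was 1.90 ± 0.45 (SE), a 3.72-fold difference with an adjusted p of 0.043. BPI ran from -1.59 over 1.00 to 1.45 with a large and from -1.73 over -1.39 to -0.50 with a small embryo, and 6 of 7 cows with a large embryo lay above each cow with a small one. Its change was 1.92 ± 0.45 (SE), 3.79-fold, with an adjusted p of 0.043. The exceptions were the cow scanned on the third day alone, low in BPI (-1.59) with a large embryo, and 1 cow high in LOC514978 (0.35) with a small one.

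Of all probes tested, 3.57% passed an adjusted p of 0.05 for embryo size in intercaruncular tissue, against these 2 of 7 members. That share rests on single cows: the 531 probes became 34 to 1893 when 1 pregnant cow was left out in turn, 34 without 1 cow with a small embryo and 1893 without the cow scanned on the third day alone. Both calls were close to the limit. When each pregnant cow was left out in turn, LOC514978 changed by 1.72 to 2.28 but lost its call in 9 of 12 cases (adjusted p 0.0099 to 0.12), and BPI changed by 1.79 to 2.29 and lost it in 10 of 12 (adjusted p 0.00098 to 0.11). Without the cow scanned on the third day alone both passed, BPI with a change of 2.29 and an adjusted p of 0.00098, as did LBP at 0.48 (adjusted p 0.025) and PTX3 at 1.68 (adjusted p 0.027). With all 12 cows the LBP difference was 0.38 ± 0.16 (SE, adjusted p 0.19) and that of PTX3 was 1.49 ± 0.45 (SE, adjusted p 0.083), with PTX3 higher than the small-embryo mean in 7 of 7 cows with a large embryo.

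In caruncular endometrium LOC514978 was higher with a large embryo by 1.38 ± 0.50 (SE, adjusted p 0.66) and BPI by 1.67 ± 0.50 (SE, adjusted p 0.61). Neither passed, and 0 of 14858 probes did (limma), with 6.95% of them at an unadjusted p under 0.05. The difference between tissues in the embryo size effect was not tested. For LYZ the sign was opposite, large minus small, at -0.64 ± 0.50 (SE, adjusted p 0.86) in caruncular and -0.33 ± 0.24 (SE, adjusted p 0.46) in intercaruncular tissue.

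**Figure D5:**
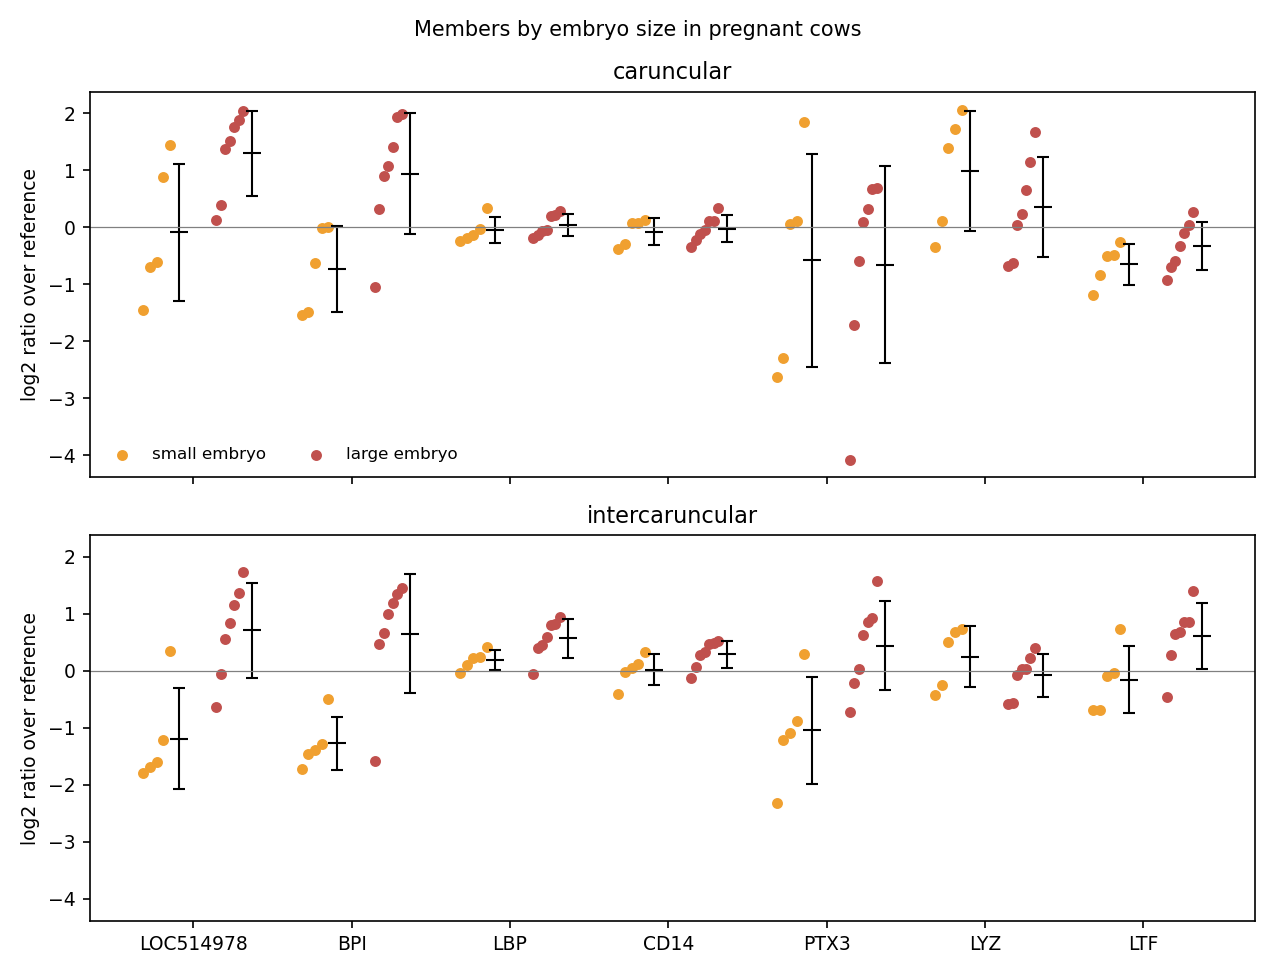
Log2 ratio over the pooled reference (y axis) of the 7 tested members in pregnant cows with a small (orange) or large (red) embryo, 1 point per cow in order of value, with the mean and SD in black beside each group, in caruncular (upper) and intercaruncular (lower) endometrium. In intercaruncular tissue 6 of 7 cows with a large embryo lie above every cow with a small one for BPI.

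The fertility label gave no member past the limit in either tissue. LOC514978 differed, fertile minus sub-fertile, by 0.39 ± 0.62 (SE, adjusted p 0.80) in caruncular and -0.03 ± 0.69 (SE, adjusted p 0.99) in intercaruncular tissue, with 95% intervals of -0.96 to 1.73 and -1.52 to 1.46. BPI differed by 0.62 ± 0.66 (SE, adjusted p 0.69) and 0.17 ± 0.69 (SE, adjusted p 0.93). These intervals leave room for differences of more than 2-fold. The widest member difference was that of PTX3 in caruncular tissue, 1.98 ± 0.73 (SE, adjusted p 0.31), with 6 of 6 fertile cows above the sub-fertile mean. Over the array, 0 of 14858 probes in caruncular and 8 (0.0538%) in intercaruncular tissue passed the adjusted p (limma), and 13.7% and 13.6% had an unadjusted p under 0.05.

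The other genes of the LPS pathway were followed in a fixed list of 30, of which 28 had a probe and 24 were tested. In caruncular tissue 2 of 24 rose and 0 fell, where 5.79% of all probes tested rose and 4.22% fell, and the median log2 change was 0.05, against -0.04 for all probes tested. The intercaruncular counts were 2 higher and 1 lower, where 4.03% of all probes rose and 3.29% fell, and the median was 0.04 against -0.01. These counts are near those shares. TLR4, the signalling receptor for LPS, changed by 0.28 ± 0.12 (SE, adjusted p 0.084) and 0.23 ± 0.13 (SE, adjusted p 0.22). LY96 changed by -0.22 ± 0.07 (SE, adjusted p 0.033) in caruncular tissue, a difference under 1.5-fold, and by -0.07 ± 0.08 (SE, adjusted p 0.60) in intercaruncular tissue. TLR2, the receptor of bacterial lipoproteins, changed by 0.26 ± 0.12 (SE, adjusted p 0.12) and 0.38 ± 0.12 (SE, adjusted p 0.032). The 2 probes of the adaptor MYD88 gave 0.30 (adjusted p 0.0041) and 0.63 (adjusted p 0.0056) in caruncular tissue, and the second alone passed 1.5-fold there.

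With 1 probe standing for each gene, the 2 genes of this list that rose were CD180 and LY86. The second MYD88 probe, past both limits in caruncular tissue, is not among these 2. CD180 is a TLR4-like receptor of B cells and myeloid cells, and LY86 encodes MD-1, the MD-2-like partner of CD180. CD180 rose by 2.34 ± 0.40 (SE, adjusted p 0.00019) in caruncular and 1.48 ± 0.43 (SE, adjusted p 0.017) in intercaruncular tissue. LY86 rose by 1.13 ± 0.14 (SE, adjusted p 5.2e-06) and 0.92 ± 0.16 (SE, adjusted p 0.00038), and was above the cyclic mean in 12 of 12 pregnant cows in both tissues. The scavenger receptor SCARB1 fell by 0.60 ± 0.16 (SE, adjusted p 0.011) in intercaruncular tissue.

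Of 64 other secreted antimicrobial genes 41 had a probe and 18 were tested, since most cathelicidin, defensin and lysozyme-like probes were at background. LYZ3 met the signal limit in 0 samples, and LYZ1 was matched to no probe. In caruncular tissue 3 of 18 rose and 2 fell, against 5.79% and 4.22% of all probes, with a median log2 change of 0.16 against -0.04. In intercaruncular tissue 2 rose and 2 fell, against 4.03% and 3.29%, with a median of 0.12 against -0.01. The ribonuclease gene RNASE6 rose by 1.43 ± 0.22 (SE, adjusted p 6.5e-05) and 1.47 ± 0.24 (SE, adjusted p 0.00021), and the cathelicidin CATHL6 by 0.65 ± 0.11 (SE, adjusted p 0.00014) and 0.85 ± 0.14 (SE, adjusted p 0.00016). S100A12, a calcium-binding protein of myeloid cells, rose by 0.99 ± 0.30 (SE, adjusted p 0.018) in caruncular tissue. The whey acidic protein family gene WFDC1 fell by 1.14 ± 0.20 (SE, adjusted p 0.00031) and by 1.28 ± 0.16 (SE, adjusted p 1.0e-05), below the cyclic mean in 12 of 12 pregnant cows in each tissue. The enteric beta-defensin EBD fell by 1.49 ± 0.51 (SE, adjusted p 0.034) in caruncular tissue and the iron carrier transferrin, TF, by 0.69 ± 0.17 (SE, adjusted p 0.0073) in intercaruncular tissue.

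Of 42 genes of soluble pattern recognition and acute phase proteins 35 had a probe and 18 were tested. In caruncular tissue 5 of 18 rose and 1 fell, against 5.79% and 4.22% of all probes, and the median log2 change was 0.04 against -0.04. In intercaruncular tissue 2 of 18 rose and 1 fell, against 4.03% and 3.29%, and the median was -0.10 against -0.01. FCN1, a ficolin that binds microbial sugars, rose by 1.01 ± 0.33 (SE, adjusted p 0.029) and 0.83 ± 0.20 (SE, adjusted p 0.0055). In caruncular tissue MASP1, a protease of the lectin pathway, rose by 1.31 ± 0.34 (SE, adjusted p 0.0069), complement factor B, CFB, by 0.98 ± 0.26 (SE, adjusted p 0.0083) and TNFAIP6, a hyaluronan-binding protein, by 0.89 ± 0.26 (SE, adjusted p 0.016). SERPINA1, the inhibitor of neutrophil elastase, fell there by 1.41 ± 0.39 (SE, adjusted p 0.011). In intercaruncular tissue the collectin COLEC10 rose by 0.68 ± 0.22 (SE, adjusted p 0.033) and the pentraxin NPTX1 fell by 0.67 ± 0.16 (SE, adjusted p 0.0065). The classical acute phase genes haptoglobin (HP), serum amyloid A3 (SAA3) and orosomucoid (ORM1) gave log2 changes of -0.06, -1.17 and 0.17 in caruncular tissue, with adjusted p of 0.94, 0.062 and 0.68.

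Markers of other cells moved with pregnancy beside these genes. Of 15 macrophage and monocyte markers 13 were tested, and 9 rose in caruncular and 7 in intercaruncular tissue, with none falling and median log2 changes of 0.98 and 0.61. Of all probes tested 5.79% and 4.03% rose. The mean log2 ratio of the 13 ran from -0.35 to 0.81 in pregnant and from -1.21 to -0.12 in cyclic caruncular samples, and from -0.68 to 0.68 and from -0.83 to -0.15 in intercaruncular samples. C1QB, a complement component made by macrophages, rose by 1.79 (adjusted p 3.9e-06) in caruncular tissue. Of 14 neutrophil markers with a probe 7 were tested, 3 of them also in the antimicrobial list, and 4 rose in caruncular and 1 in intercaruncular tissue, against the same shares. Their median log2 changes were 0.63 and 0.43, and S100A12 was 1 of the 4. The mean of those 7 ran from -0.59 to 0.50 in pregnant and from -1.19 to -0.27 in cyclic caruncular samples, and from -0.74 to 0.86 and from -0.83 to 0.64 in intercaruncular samples. The other 7 with a probe, granule and receptor genes among them, met the signal limit in too few samples to be tested, so their change is not known. MPO met it in 0 of 44 samples, CTSG in 1, MMP8 in 2, CSF3R in 3, AZU1 and CXCR1 in 5 each and PADI4 in 11. Of 7 markers of all leukocytes 1 rose in each tissue, CD53, by 1.71 and 1.24, with medians of 0.42 and 0.30.

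Markers of other tissue compartments moved with pregnancy too. Of 7 smooth muscle markers 5 fell in each tissue, with medians of -0.92 and -1.04, where 4.22% and 3.29% of all probes fell. Their mean log2 ratio ran from -1.44 to 0.51 in pregnant and from -0.35 to 1.10 in cyclic caruncular samples, and from -1.61 to 0.13 and from -0.95 to 0.84 in intercaruncular samples. Of 6 endothelial markers 2 fell in each tissue, PECAM1 and TEK (medians -0.43 and -0.48). Of 11 epithelial markers 2 rose and 3 fell in caruncular tissue, and 2 rose and 1 fell in intercaruncular tissue (medians -0.38 and -0.01). Of 9 stromal markers 1 rose and 1 fell in caruncular tissue and 3 fell in intercaruncular tissue (medians -0.0024 and -0.28). Of 3 gland markers 1 fell in caruncular tissue and 0 passed in intercaruncular tissue. The part of all these cells in the LOC514978 and BPI changes was not tested.

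The tissue labels were checked in the same way. All 7 endometrial receptor and developmental genes with a probe (ESR1, PGR, HOXA10, HOXA11, FOXL2, MSX1 and OXTR) were measured. Of these, 3 fell in caruncular and 2 in intercaruncular tissue of pregnant cows, where 4.22% and 3.29% of all probes fell. Such a fall does not bear on the tissue labels. The mean of the 3 gland markers tested had a median of -1.19 in caruncular and -0.15 in intercaruncular samples of cyclic cows. Of 13 conceptus trophoblast markers with a probe 1 was tested, a PAG1 probe with changes of 0.16 (adjusted p 0.53) and -0.33 (adjusted p 0.35), and the interferon tau gene IFNT2 met the signal limit in 0 of 44 samples.

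For each tested member the 3 named probes with the highest Pearson's r over the 44 samples were listed, among 12197 or more probes that carry a gene symbol. The samples share states, tissues and cows, so these r are a description. LOC514978 was most like OAS2 (r = 0.98), SIGLEC1 (r = 0.98) and PML (r = 0.97), which are known as interferon-stimulated genes. BPI was most like RNASE6 (r = 0.96), the cyclin gene CCNB2 (r = 0.94) and SIGLEC1 (r = 0.94). LOC514978 and BPI correlated at 0.92 with each other, a value that 99 of 14521 other probes exceeded for LOC514978, and LOC514978 and LBP at 0.20. The bright LYZ probe was most like GPNMB, ADTRP and CD68 (r = 0.86 each), of which CD68 and GPNMB are known from macrophages. PTX3 was nearest to IGF1R (r = 0.79), BCAP31 (r = 0.76) and SLC45A4 (r = 0.75), and LTF to haptoglobin, HP (r = 0.65), IKBKE and LRBA (r = 0.53 each). LBP was nearest to RBM19, FOXP4 and FADD (r = 0.77 each) and CD14 to PPAN, DDX54 and SRM (r = 0.79, 0.78 and 0.78).

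Each of 4 caruncular samples was hybridised a second time, which shows the technical error. Over all probes tested the SD of the difference between the arrays of a sample was 0.10 to 0.15, and the largest difference of a tested member was 0.34, for LOC514978 in a cyclic cow. On each array 68.8% to 84.0% of the spots were well above background.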

How the data were processed

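Gene expression was measured in 44 endometrial samples of 22 cows on 48 arrays, since 4 caruncular samples were hybridised 2 times. Spot intensities were extracted by the authors with Agilent Feature Extraction, per the file headers version 9.5.3.1, which subtracted background, flagged outlying spots (the flag columns hold 0 or 1) and normalised the dyes by LOWESS within each array. The deposited log10 ratios are the Cy5 (sample) over the Cy3 (pool) signal of each spot. The deposited matrix holds the authors' log2 ratios per probe, as the logarithm of the ratio of mean signals. It equals the scanner ratios within 1e-05 in 40 of 48 columns, differs by up to 1.33 in the others and has column medians from -0.028 to 0.059. The intensity columns deposited served for the filter and for the normexp alternative. A genome build is not given in the sources used here, so no coordinates are printed.

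Here the log10 ratios were converted to log2 and averaged over the 2 unflagged spots of a probe. The median of each array was subtracted, but was 0 on every array, so that omitting this step changes nothing. Repeat arrays of a sample were averaged. Groups follow the sample labels, with each cow as 1 replicate. Testing needed 22 or more samples with a signal clearly over background (the software's flag) and of 80 units or more, which 14858 of 21475 probes met. These were fitted with limma (version 3.58.1) in R (version 4.3.3). P-values were adjusted by Benjamini-Hochberg over all probes tested. A probe was called at an adjusted p under 0.05, with at least 1.5-fold for pregnancy and tissue. Simulated data with known changes in these samples gave back 72% of 1.5-fold and 98% of 4-fold changes for the caruncular pregnancy comparison. Recovery here meant an adjusted p under 0.05 alone, without the 1.5-fold limit, so the 72% does not hold for calls under both limits. For 1.5-fold changes it was 46% and 48% for embryo size and 37% and 42% for fertility, in caruncular and intercaruncular tissue. Permutation tests and figures used Python (version 3.11.15), scipy (version 1.17.1) and matplotlib (version 3.10.9), with 100000 resamples, two-sided.

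The 2 tissues of a cow are paired by animal. Deviations from the group mean correlated between them at 0.11 to 0.87 (median 0.61), highest with the same cow's own other tissue in 21 of 22 cows. Without the cow as a block, p-values between tissues ignore this. The number of arrays limits the precision. Members and gene lists were chosen with earlier results of these data known. Named in the text are all member probes, TLR4, LY96, TLR2, MYD88 and the lysozymes, of each pathway list up to 4 rises and 2 falls with the largest change past the limits in each tissue, and the 3 probes most like each member. HP, SAA3, ORM1 and the cell markers were named after their values were seen. Where a gene had several probes, the one that met the signal limit in most samples stood for it. Probes were named through the RefSeq table by gene number (9879 probes) or accession (3524), and otherwise by the array's description (3965) or gene name (4107). Alternatives were normexp with loess, no centring, centring on the tested probes, no filter or a stricter one (35 of 44 samples), 1 array per repeated sample, slide or scan date as a block (first arrays only), the deposited matrix, flagged spots kept, all samples in 1 fit, the methods' t-test in Welch's version, the cow as a block, each other label as a covariate and leaving out cows. No sequence is printed, as no file used here holds the probe sequences.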

Additional observations from a re-analysis of the deposited data

Results flagged for a closer look

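Of 70 groups of 5 to 10 cows examined over the 7 tested probes, 5 held a cow that stood apart from the rest of its group, where chance gives about 1 in 20. The cyclic cow scanned on the third day alone stood at -3.26 for LOC514978 in caruncular tissue, with the next cyclic cow at -3.97. The same cow gave the highest caruncular LYZ value of the cyclic cows (2.08), their lowest PTX3 value (-4.62) and the highest PGLYRP1 value of all (2.66). A cow with a small embryo stood at 0.35 for LOC514978 in intercaruncular tissue, above the others of that group, of which the next was at -1.22. The pregnant cow scanned on the third day alone stood at -1.59 for BPI in intercaruncular tissue, below the other cows with a large embryo, of which the next was at 0.47. The part of the scan day was not tested. A sub-fertile cow stood at 0.28 for LBP in caruncular tissue, with the next sub-fertile cow at -0.07. A cyclic cow stood at 1.41 for LTF in intercaruncular tissue, with the next cyclic cow at 0.11, and was also the highest cyclic cow in caruncular tissue (1.40).

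The LOC514978 pregnancy effect was larger in caruncular than in intercaruncular tissue by 1.13 ± 0.27 (SE) on the log2 scale with the cow as a fixed block (limma, adjusted p 0.043). Without the block the SE was 0.54 and the adjusted p 0.65, and the adjusted p ranged from 0.043 to 1.0 over 14 alternatives. The sign was the same in each of them, with values from 0.74 to 1.22.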

How the results depend on the processing

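The pregnancy calls of LOC514978 and BPI held in both tissues under each alternative but slide as a fixed block, where 0 members passed in each tissue with the changes of both genes still positive. With normexp and loess, or with scan date as a fixed block, 4 members passed in intercaruncular tissue in place of 2, as LYZ and PTX3 joined. The methods' t-test called 2 and 2 members at 1.5-fold and an adjusted p under 0.05, and 1397 and 1011 of all probes. When the cow was fitted as a replicate block, 1 member passed for the pregnancy effect by tissue (LOC514978) in place of 0, and 2 passed between tissues in pregnant cows (LOC514978 and LTF) in place of 1. Over all probes the block raised the calls for the pregnancy effect by tissue from 3 to 150 and changed no other call of a member. Between tissues in pregnant cows, 0 members passed with slide and 0 with scan date as a fixed block, where 1 cow alone informs the comparison. For embryo size in intercaruncular tissue, 0 members passed without the signal filter, when more probes are tested, and 4 with scan date as a fixed block or without the 2 cows scanned on the third day alone, an alternative chosen after the data were seen. Both set aside the pregnant cow scanned on the third day alone, so they are the same comparison as leaving out that cow. Leaving out 1 pregnant cow in turn gave 0 to 4 members. The LBP probe difference kept its sign and permutation p of 1e-05 under normexp with loess (4.41 and 3.14 in caruncular and intercaruncular tissue), the deposited matrix, first arrays only and flagged spots kept. Keeping flagged spots gave the same values as the main setting in both tissues. First arrays only did so in intercaruncular tissue, where no sample was repeated. In these cases the alternative could not change the result. No result past its limit changed sign under any alternative, but 47 values of members that had not passed did, and the cause was not tested. Between tissues in cyclic cows LOC514978 turned to 0.65, LBP to 0.26 and LTF to 0.13 with slide or scan date as a fixed block, and LTF to 0.0033 with slide as a random block. For pregnancy in caruncular tissue LBP (-0.01) turned to 7.1e-05 with normexp and loess, 0.014 on first arrays, 0.016 with scan date as a block, 0.0071 centred on the tested probes and 0.019 without those 2 cows. With slide as a fixed block CD14 turned to -0.39 and -0.54 for pregnancy in caruncular and intercaruncular tissue, and for the pregnancy effect by tissue LYZ turned to -0.49, PTX3 to 0.010 and CD14 to 0.078, with LYZ at -0.069 and CD14 at 0.0055 for the random block. For embryo size in caruncular tissue PTX3 turned to 0.094 with scan date as a block, 0.27 with the fertility label as a covariate and 0.095 without those 2 cows (-0.59 to 0.53 without 1 cow), and CD14 to -0.015 with slide as a block (-0.019 to 0.11 without 1 cow). For fertility in caruncular tissue the slide block turned LOC514978 to -0.25, BPI to -0.26, LTF to 0.042 and CD14 to -0.29 (random block -0.0011), scan date turned LTF to 0.064 and CD14 to -0.052, and omitting those 2 cows gave 0.048 and -0.054. For fertility in intercaruncular tissue LOC514978 turned to 0.30 with embryo size as a covariate, BPI to -1.48 with slide as a fixed and -0.16 as a random block and to -0.098 with scan date as a block or without those 2 cows, and with slide as a fixed block LYZ turned to 0.023 and PTX3 to -0.81. Signal over background limits PGLYRP1 and 2 of 3 LYZ probes, which allow no statement on change.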
